A study of Mus musculus with 18 samples.

Results

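The enterocyte genes of dietary fat handling described here are 10 of the 55487 genes in the deposited counts, and were followed across all 18 libraries. They are the apolipoprotein genes Apoa1, Apoa4, Apob and Apoc3, the lipid transfer protein gene Mttp, the fatty acid binding protein genes Fabp1 and Fabp2, the diacylglycerol acyltransferase genes Dgat1 and Dgat2, and the fatty acid receptor gene Cd36. They were chosen by symbol, for their place in fat absorption and with earlier results of these data known, and all 10 passed the filter on low counts. The libraries were made from small intestinal organoids, which are 3-dimensional cultures grown from crypts and hold stem cells together with their differentiated offspring. The crypts came from wild-type female C57BL/6 mice, and the organoids were treated after 4 passages. For 4 days they received 1 μM norepinephrine (5 samples), an agonist of α- and β-adrenergic receptors, or its vehicle HCl (4 samples), or 1 μM UK14,304 (5 samples), an agonist of α2-adrenergic receptors, or its vehicle DMSO (4 samples). The sample titles number the libraries m1 to m5, here called replicates 1 to 5, without saying what a number marks, and neither vehicle has a replicate 5. The main fit took the replicate number as a block, so its p-values measure the spread between samples left after differences between replicate numbers. That spread may in part be technical. The values describe RNA and not the absorption of fat.

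Enterocytes take up fatty acids and monoglycerides from the gut lumen, bind them in the cytosol, rebuild them into triglycerides at the endoplasmic reticulum and pack these with apolipoproteins into chylomicrons, which leave the cell on its basal side. Apob gives the protein backbone of the particle and Mttp, the microsomal triglyceride transfer protein, loads it with lipid. Apoa1, Apoa4 and Apoc3 encode smaller apolipoproteins of the particle surface, and Apoc3 protein is known as an inhibitor of triglyceride clearance from blood.

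Some features of the libraries stood apart before any gene was considered. Total counts were between 21.87 and 27.85 M per library. The library labelled norepinephrine replicate 4 differed from the other norepinephrine libraries in how expression depended on the GC content of genes, with a slope of 0.195 on the log2 scale per 10 percentage points of GC against -0.146 to -0.07 in the other 4. The slopes were 0.043 to 0.073 with HCl vehicle, -0.038 to 0.121 with DMSO vehicle and -0.222 to 0.061 with UK14,304. UK14,304 replicate 4 also stood apart from its group, with the lowest slope of all 18 libraries, -0.222, against -0.088 to 0.061 in the other UK14,304 libraries. The ribosomal RNA gene CT010467.1 took 1.83% to 3.06% of the counts in 7 libraries and 0.313% to 0.619% in the other 11. Those 7 held 3 of the 4 with DMSO and 1 of the 5 with UK14,304. The counts of members called are also given without norepinephrine replicate 4 and within the libraries of lower ribosomal RNA share, and estimates within those of higher share. Ranges over each library left out, UK14,304 replicate 4 among them, are given as well. Markers of epithelium were high and those of other tissues were low. The summed level of Epcam, Cdh1, Krt8 and Krt18 was 4330 to 4810 CPM (counts relative to TMM-normalized library size), whereas the summed levels of 4 markers each were 0.696 to 1.57 CPM for endothelium, 0.0813 to 0.346 CPM for fibroblasts and 0.411 to 1.49 CPM for immune cells. The fibroblast marker Dcn and the macrophage marker Adgre1 were at 0 in all 18 libraries. Of the adipocyte markers Adipoq, Plin1, Lep and Cidec, Lep was at 0 in all and only Cidec passed the filter on low counts, with a summed level of 9.91 to 27.5 CPM.

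Apoa1, Apoc3 and Apoa4 lie side by side in the genome. In GRCm38, Apoa1 (ENSMUSG00000032083) spans chr9:46228580-46230466 on the plus strand, Apoc3 (ENSMUSG00000032081) spans chr9:46232933-46235636 on the minus strand, and Apoa4 (ENSMUSG00000032080) spans chr9:46240696-46243459 on the plus strand. The gap between Apoa1 and Apoc3 is 2467 bases. Apoa5, the next apolipoprotein gene of this cluster, had 0 to 3 counts per library. The other members are Apob on chr12:7977648-8016835 (plus), Mttp on chr3:138089854-138144968 (minus), Fabp1 on chr6:71199827-71205023 (plus), Fabp2 on chr3:122895072-122899506 (plus), Dgat1 on chr15:76502015-76511953 (minus), Dgat2 on chr7:99153658-99182719 (minus) and Cd36 on chr5:17781690-17888801 (minus). The counts did not use strand and left out reads over several genes, so 2 members are less certain than the rest. Apoa4 shares 634 of its 1815 exon bases with Gm47528 on the opposite strand, which had 109 to 301 counts, and 632 with Gm10680, which had 0 to 3. Mttp shares 457 of its 6206 exon bases with Trmt10a, which had 194 to 307 counts, and 132 with Gm43691, which had 2 to 19.

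Promoter sequences from RefSeq (GRCm38.p6) were found for 7 of the 10 members and are shown for 5 whose levels moved together or whose sequence held several of the motifs searched. Each run is the part of the 250 bases before the RefSeq start that lies outside the exons of the deposited annotation, read 5′ to 3′ on the strand of the gene. Apoa1 and Apoa4 are neighbours that varied together over the libraries, as did Fabp2 and Cd36, which lie on different chromosomes, and Fabp1 had the highest level of all genes. Capitals mark matches to the motifs named next. The runs lie at chr9:46228380-46228579 (Apoa1, plus), chr9:46240594-46240695 (Apoa4, plus), chr6:71199629-71199826 (Fabp1, plus), chr3:122894822-122895071 (Fabp2, plus) and chr5:17835897-17836146 (Cd36, minus). The Cd36 run is inside the span of the deposited gene model but outside its exons.
Apoa1: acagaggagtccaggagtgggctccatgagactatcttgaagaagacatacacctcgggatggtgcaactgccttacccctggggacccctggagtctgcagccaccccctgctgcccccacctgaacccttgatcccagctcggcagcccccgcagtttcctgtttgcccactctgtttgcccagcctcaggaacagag
Apoa4: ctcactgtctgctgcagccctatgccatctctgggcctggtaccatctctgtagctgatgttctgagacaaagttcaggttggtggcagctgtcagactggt
Fabp1: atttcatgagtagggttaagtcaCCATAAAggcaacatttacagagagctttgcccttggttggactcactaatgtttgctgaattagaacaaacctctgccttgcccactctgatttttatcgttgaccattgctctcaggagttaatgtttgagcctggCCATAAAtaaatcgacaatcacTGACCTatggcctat
Fabp2: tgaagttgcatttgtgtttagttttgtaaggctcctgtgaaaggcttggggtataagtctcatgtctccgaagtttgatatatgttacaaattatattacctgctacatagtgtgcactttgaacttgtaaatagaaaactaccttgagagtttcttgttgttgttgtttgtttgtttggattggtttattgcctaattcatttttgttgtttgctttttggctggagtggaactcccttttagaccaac
Cd36: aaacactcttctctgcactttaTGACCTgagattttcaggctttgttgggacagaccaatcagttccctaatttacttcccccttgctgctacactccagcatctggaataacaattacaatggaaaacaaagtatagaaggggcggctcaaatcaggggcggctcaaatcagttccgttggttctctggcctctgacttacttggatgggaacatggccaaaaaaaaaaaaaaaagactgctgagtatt

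The windows of 250 bases were searched on both strands for 5 motifs. In Fabp1, the letters of a CDX site, TTTATGG, were found in reverse as CCATAAA at bases -227 and -89 from the RefSeq start, and 2.45% of all 27025 promoters held this motif. Fabp1 also held AGGTCA, the core of nuclear receptor sites found in 13.8% of promoters, in reverse as TGACCT at -67 and again at -9. Cd36 held the last motif, also in reverse, at -228. TATAAA, found in 13.0% of promoters, began at -30 in Fabp1 and at -60 in Apob. No match overlapped another. The letters AGATAA (10.3% of promoters) and CAAAGTCCA (0.381%) were in none of the 7 windows. All 250 bases of the Mttp window and 148 of those of Apoa4 lie in exons of the deposited annotation. So do the last 52 of Fabp1, with its matches at -30 and -9. A match describes the letters and not a bound site.

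The members covered a wide range of levels, compared between genes per exon length as RPKM. Fabp1, the cytosolic fatty acid binding protein of liver and gut, stood first of all genes tested, at 6442 ± 721 RPKM (SD over 18 libraries). Apoa1, the main protein of high density lipoprotein, ranked 6th at 1921 ± 189 RPKM, and Apoa4 ranked 18th at 982 ± 213. Fabp2, the intestinal fatty acid binding protein, followed at 726 ± 74.8, Mttp at 362 ± 30.6, Apob at 270.0 ± 37.6, Apoc3 at 124 ± 31.7 and Dgat1 at 107 ± 7.41 RPKM. Dgat2, which like Dgat1 adds the last acyl chain to a triglyceride, was lower at 38.6 ± 4.79, and Cd36, a membrane receptor for long-chain fatty acids, was the lowest at 12.6 ± 2.49 RPKM. The ranges over the 18 libraries overlapped for the neighbours Apoa4 and Fabp2, Mttp and Apob, and Apoc3 and Dgat1, and were apart for the other neighbours. Within a library, Mttp was above Apob in 18 of 18, Apoa4 above Fabp2 in 15 of 18 and Apoc3 above Dgat1 in 13 of 18, so the order of the last 2 pairs varied between libraries. Together the 10 genes took between 1.27% and 1.63% of all counts. The highest library exceeded the lowest by 2.76-fold for Apoc3 and 2.63-fold for Apoa4 in CPM, but by only 1.21-fold for Dgat1 and 1.34-fold for Mttp.

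**Figure D1:**
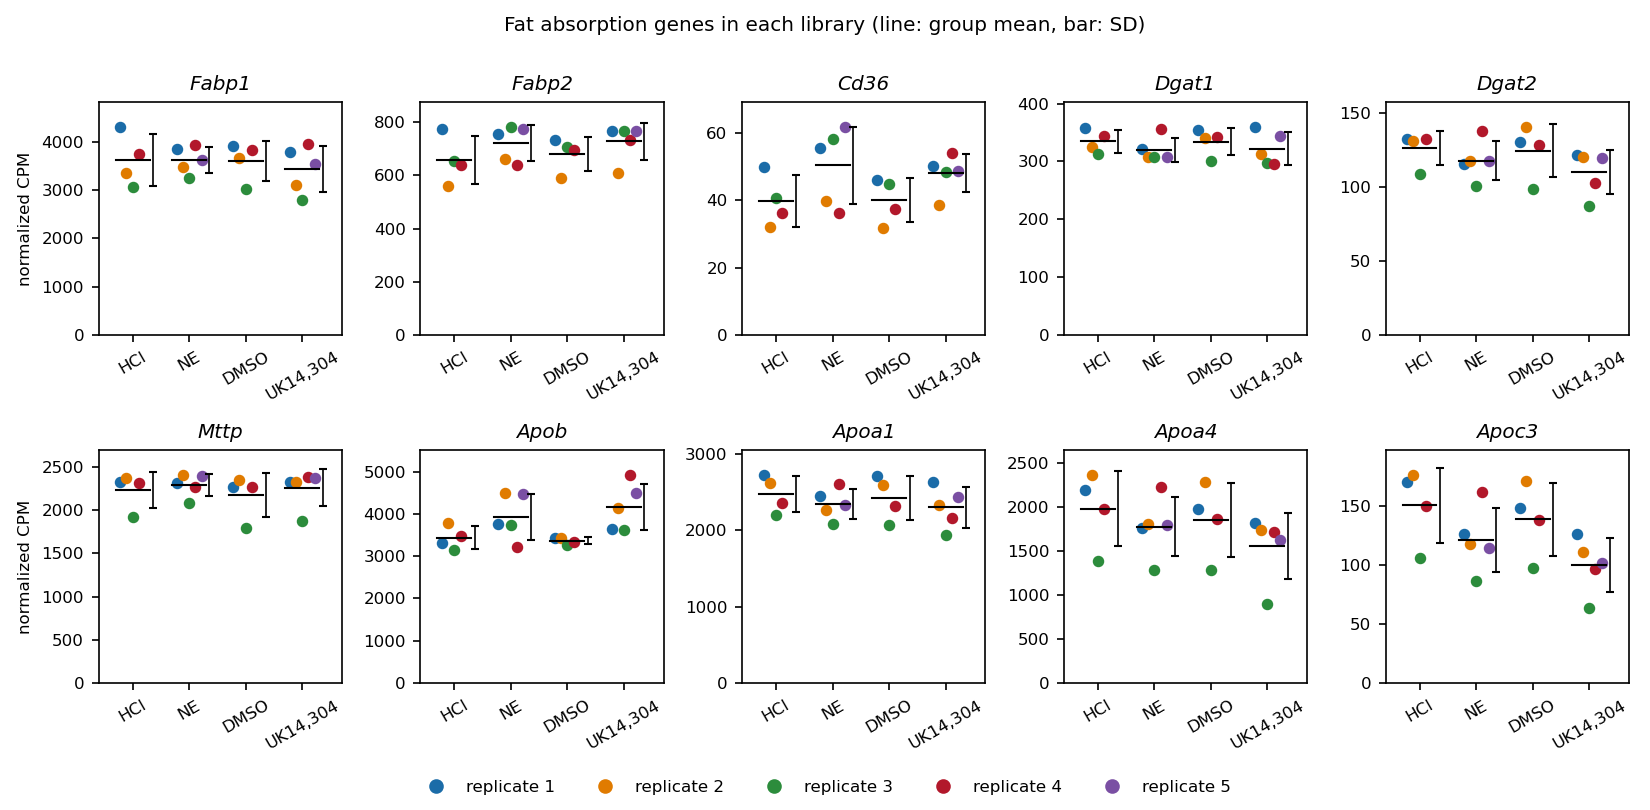
Normalized CPM of the 10 fat absorption genes (y axis, from 0) in each of the 18 libraries, by group (x axis, NE is norepinephrine) and coloured by replicate number, with the group mean as a line and the SD as a bar. Replicate 3 (green) is the lowest point of every group for Apoa1, Apoa4, Apoc3, Mttp, Fabp1 and Dgat2, and the 5 UK14,304 points of Apob all lie above the 4 DMSO points.

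Apoc3 was the member that passed the test, and it did so for UK14,304. In the order of the replicate numbers, Apoc3 was at 148.5, 171.2, 97.38 and 137.8 CPM in the 4 DMSO vehicle libraries and at 126, 111.3, 63.69, 96.97 and 101.5 CPM in the 5 UK14,304 libraries. The 2 groups overlapped, but each UK14,304 library of replicates 1 to 4 was below the DMSO library of the same number, by 0.236, 0.621, 0.612 and 0.506 on the log2 scale in that order. With the replicate number as a block, Apoc3 fell with UK14,304 by 28.1% (log2 fold change -0.48, SE 0.0997, 95% interval -0.69 to -0.26, adjusted p = 0.0288, quasi-likelihood test of edgeR, Benjamini-Hochberg adjustment over 15247 genes). In bulk RNA, fewer cells that express a gene and less RNA of it per cell cannot be told apart. Without the block the estimate was -0.47 and the SE 0.22, and the adjusted p was 0.444. With a term for those 7 libraries of high ribosomal RNA added beside the block, the log2 fold change was -0.39 and the adjusted p 0.146. When single libraries or replicate numbers were left out, the estimate stayed between -0.54 and -0.41 and the call was kept in 15 of 23 cases. It was lost without DMSO replicate 1, 2 or 3 (adjusted p = 0.061, 0.183 and 0.103), without UK14,304 replicate 2, 3 or 4 (0.0906, 0.116 and 0.147) and without replicate number 2 or 3 in all groups (0.172 and 0.207).

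With norepinephrine, Apoc3 did not pass. It was at 170.1, 175.9, 105.6 and 149.9 CPM in the HCl vehicle libraries and at 125.9, 117.7, 86.54, 162 and 114.3 CPM in the norepinephrine libraries, and the groups overlapped. Replicates 1 to 3 were lower with norepinephrine by 0.433, 0.579 and 0.287 on the log2 scale, whereas replicate 4 was higher by 0.112. The fitted log2 fold change was -0.30 (SE 0.0992, 95% interval -0.51 to -0.087, adjusted p = 0.556). Without norepinephrine replicate 4 it was -0.42 (SE 0.0636, adjusted p = 0.00143), so 1 library decided the call.

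Apoa4, which encodes a chylomicron apolipoprotein that is abundant in the small intestine, had the same direction as its neighbour but did not pass. Its levels were 1976, 2294, 1285 and 1872 CPM with DMSO vehicle and 1819, 1745, 899.6, 1715 and 1634 CPM with UK14,304. Every UK14,304 library with a vehicle of the same number was below it, while the groups overlapped. The log2 fold change was -0.28 (SE 0.0845, 95% interval -0.46 to -0.097, adjusted p = 0.151). With HCl vehicle Apoa4 was at 2199, 2365, 1388 and 1981 CPM, and with norepinephrine at 1764, 1812, 1285, 2237 and 1799 CPM, with a log2 fold change of -0.16 (SE 0.0844, adjusted p = 0.593). Replicate 4 was again the one that went the other way, by 0.176.

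Apoa1 moved less. It was at 2702, 2583, 2068 and 2319 CPM with DMSO vehicle against 2630, 2330, 1931, 2160 and 2428 CPM with UK14,304, a log2 fold change of -0.085 (SE 0.0516, adjusted p = 0.447). With HCl vehicle it was at 2716, 2617, 2198 and 2357 CPM against 2444, 2257, 2073, 2602 and 2324 CPM with norepinephrine, a log2 fold change of -0.086 (SE 0.0514, adjusted p = 0.616). All 4 groups overlapped, and the intervals of both effects held 0.

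Apob differed in sign from the 3 genes of the chromosome 9 cluster. With DMSO vehicle it was at 3441, 3441, 3265 and 3332 CPM, and with UK14,304 at 3645, 4148, 3624, 4912 and 4484 CPM. The lowest UK14,304 library lay above the highest DMSO library, as was so for 1.72% of all genes tested and for no other member. The log2 fold change was 0.26 (SE 0.0827, 95% interval 0.087 to 0.44) and did not pass (adjusted p = 0.163). Against the DMSO library of the same number, Apob was higher by 0.083, 0.27, 0.15 and 0.56 on the log2 scale in replicates 1 to 4. With HCl vehicle Apob was at 3320, 3789, 3142 and 3486 CPM, and with norepinephrine at 3763, 4500, 3728, 3221 and 4467 CPM. These groups overlapped, through norepinephrine replicate 4, the lowest of its group, and the log2 fold change was 0.16 (SE 0.0828, adjusted p = 0.597).

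Mttp, whose product works together with the Apob protein, was close to its vehicles. It was at 2273, 2350, 1793 and 2269 CPM with DMSO vehicle and 2328, 2322, 1878, 2388 and 2379 CPM with UK14,304 (log2 fold change 0.041, 95% interval -0.036 to 0.12, adjusted p = 0.611). With HCl vehicle it was at 2326, 2369, 1922 and 2321 CPM, and with norepinephrine at 2312, 2405, 2087, 2266 and 2397 CPM (log2 fold change 0.024, 95% interval -0.054 to 0.10, adjusted p = 0.822). The intervals bound a change of Mttp more tightly than one of any other member, in both comparisons.

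Among the genes of fatty acid uptake and binding, none passed. Cd36 was at 49.89, 32.04, 40.64 and 36.33 CPM with HCl vehicle and at 55.62, 39.89, 58.26, 36.36 and 61.72 CPM with norepinephrine, a log2 fold change of 0.29 (SE 0.103, 95% interval 0.076 to 0.51, adjusted p = 0.556). It was at 46.06, 31.82, 44.77 and 37.51 CPM with DMSO vehicle and at 50.17, 38.72, 48.45, 53.95 and 48.62 CPM with UK14,304, a log2 fold change of 0.23 (SE 0.101, adjusted p = 0.304). The groups overlapped in both comparisons, and Cd36 was above the vehicle of the same number in 4 of 4 replicates with each agonist, although for norepinephrine replicate 4 by only 0.001 on the log2 scale. With UK14,304 it was above by 0.123, 0.282, 0.114 and 0.523 in replicates 1 to 4. Fabp2 ranged from 561.3 to 776.6 CPM with HCl vehicle, 637.8 to 781.9 with norepinephrine, 589.6 to 732.5 with DMSO vehicle and 608.8 to 768.5 with UK14,304, with log2 fold changes of 0.12 (SE 0.0486, adjusted p = 0.568) for norepinephrine and 0.073 (SE 0.0485, adjusted p = 0.483) for UK14,304. Fabp1 ranged from 3059 to 4299 CPM, 3254 to 3920, 3009 to 3905 and 2784 to 3951 in the same order of groups. Its log2 fold change was 0.0032 (95% interval -0.097 to 0.10, adjusted p = 0.981) for norepinephrine and -0.079 (95% interval -0.18 to 0.021, adjusted p = 0.446) for UK14,304.

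The genes of the last step of triglyceride synthesis were lower in the estimates and did not pass. Dgat2 was at 130.2, 140.4, 98.76 and 128.3 CPM with DMSO vehicle and at 121.4, 119.9, 86.82, 102.6 and 119.8 CPM with UK14,304, below the vehicle of the same number in 4 of 4 replicates. Its log2 fold change was -0.19 (SE 0.0612, 95% interval -0.32 to -0.062, adjusted p = 0.162), and with norepinephrine it was -0.12 (SE 0.0611, adjusted p = 0.592). Dgat1 was the steadiest member, between 295.8 and 359.2 CPM in all libraries, with log2 fold changes of -0.072 (SE 0.0515, adjusted p = 0.653) for norepinephrine and -0.060 (SE 0.0517, adjusted p = 0.597) for UK14,304.

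In sum over the members, 0 of 10 passed for norepinephrine against HCl vehicle, where 16 of the 15247 genes tested did (0.105%), and 3 members (Apoc3, Fabp2 and Cd36) had an unadjusted p under 0.05, as did 8.4% of all genes. DESeq2 with the block also called 0 of 10, where 0.19% of genes were called, and edgeR without the block called 0 of 10, where 0% were. For UK14,304 against DMSO vehicle, 1 of 10 passed, where 186 genes did (1.22%). The call was a lower level, as for 1.04% of the genes, and 5 members (Apoa4, Apob, Apoc3, Dgat2 and Cd36) had an unadjusted p under 0.05, as did 14.8% of all genes. DESeq2 with the block called 2 of 10, Apoc3 and Apoa4 (adjusted p = 0.000106 and 0.0499), where 1.73% of genes were called, and edgeR without the block called 0 of 10, where 0.0394% were and 2 members had an unadjusted p under 0.05. The median log2 fold change of the members was -0.034 for norepinephrine and -0.070 for UK14,304, against -0.0077 and -0.0043 for all genes tested. With UK14,304, Apoa1, Apoa4, Apoc3 and Dgat2 were below the vehicle of the same number in 4 of 4 replicates, as were 15.5% of all genes, and Apob, Fabp2 and Cd36 were above it in 4 of 4, as were 14% of all genes. The members therefore did not move as 1 block, with 5 higher and 5 lower estimates for norepinephrine and 4 higher and 6 lower for UK14,304.

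**Figure D2:**
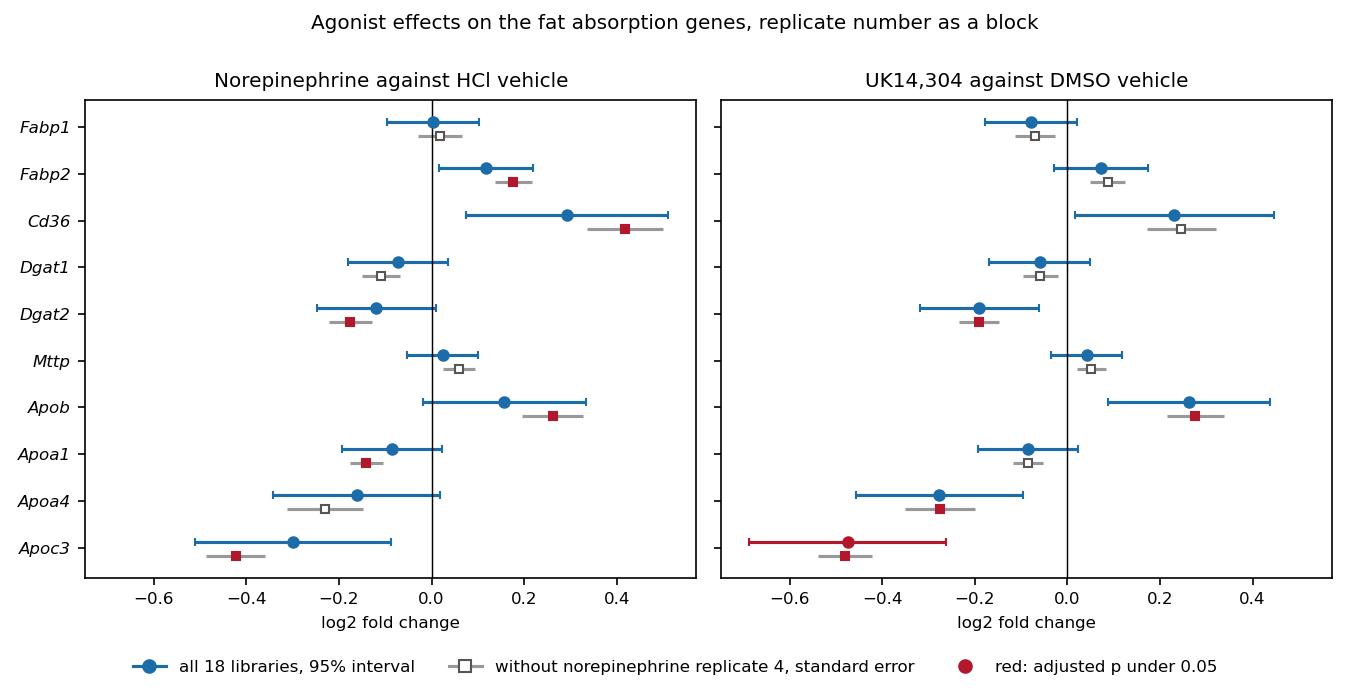
Log2 fold change (x axis) of each gene (y axis) for norepinephrine against HCl vehicle (left) and UK14,304 against DMSO vehicle (right), with the replicate number as a block. Circles with 95% intervals use all 18 libraries, squares with standard errors leave out norepinephrine replicate 4, and red marks an adjusted p under 0.05. With all libraries only Apoc3 with UK14,304 is red, and without that library 6 genes are red on the left and 4 on the right.

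The count for norepinephrine turned on the norepinephrine library that stood apart. Without norepinephrine replicate 4, 6 of 10 members passed, but so did 16.7% of all genes tested (2529 of 15161, in place of 16). Apoc3 (-0.42, adjusted p = 0.00143), Dgat2 (-0.18, adjusted p = 0.0155) and Apoa1 (-0.14, adjusted p = 0.0102) were lower on the log2 scale, and Cd36 (0.42, adjusted p = 0.0049), Apob (0.26, adjusted p = 0.0175) and Fabp2 (0.18, adjusted p = 0.00645) were higher. Apoa4 (-0.23, adjusted p = 0.0754), Dgat1 (-0.11, adjusted p = 0.0687), Mttp (0.059, adjusted p = 0.25) and Fabp1 (0.018, adjusted p = 0.835) did not pass. For UK14,304, which shares the estimate of the spread and of the replicate numbers with that library, 4 of 10 members passed without it, where 8.08% of all genes did. These were Apoc3 (-0.48, adjusted p = 0.000151), Apoa4 (-0.28, adjusted p = 0.0472), Apob (0.28, adjusted p = 0.015) and Dgat2 (-0.19, adjusted p = 0.00851), all in the direction they had with every library in the fit. With UK14,304 replicate 4 left out instead, Apoc3 lost its call (-0.43, adjusted p = 0.147). Over the 23 cases with a library or replicate number left out, the UK14,304 estimate of Apob ranged from 0.15 to 0.325, with a call in 2. That of Apoa4 ranged from -0.33 to -0.20 (called in 1), of Dgat2 from -0.22 to -0.14 (called in 2) and of Cd36 from 0.10 to 0.28 (called in 0).

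**Figure D3:**
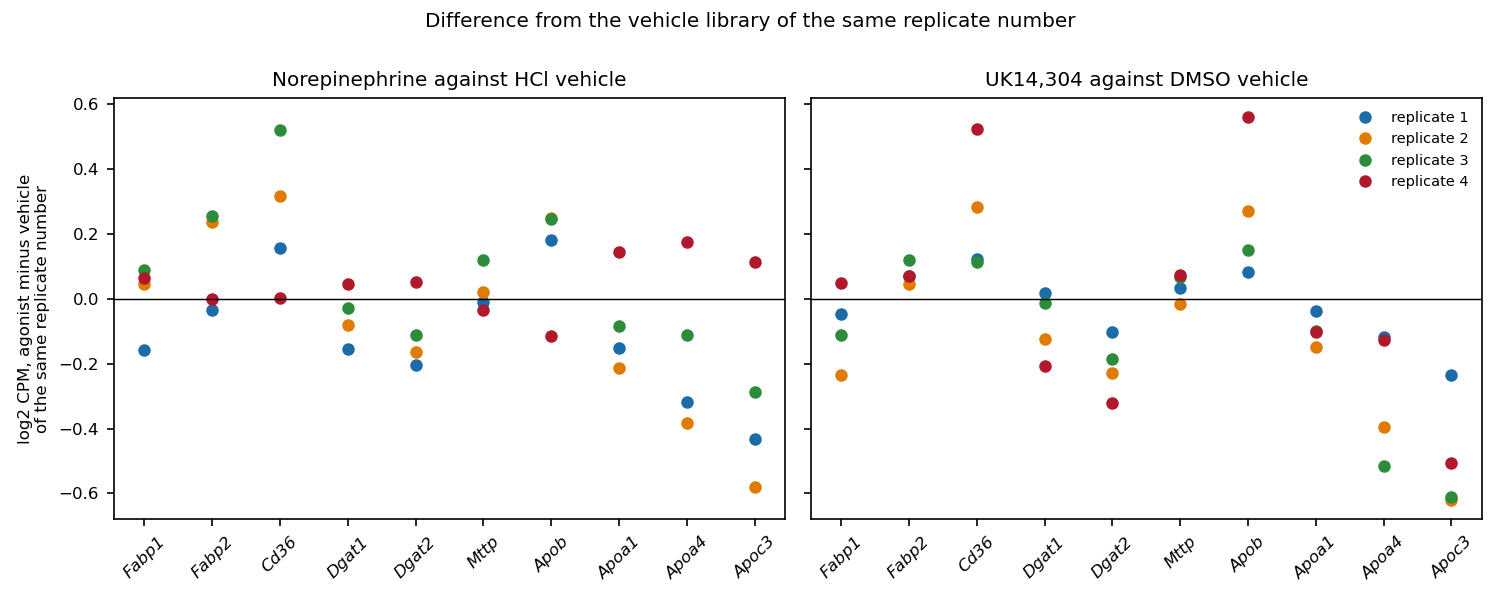
Difference in log2 CPM between each agonist library and the vehicle library of the same replicate number (y axis) for the 10 genes (x axis), for norepinephrine (left) and UK14,304 (right), with 1 point for each of replicates 1 to 4. On the left, replicate 4 (red) lies on the other side of 0 from replicates 1 to 3 for Apoa1, Apoa4, Apoc3, Dgat1, Dgat2 and Apob. On the right, the 4 points of Apoa1, Apoa4, Apoc3 and Dgat2 lie below 0 and those of Apob, Fabp2 and Cd36 above it.

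The direction of a member went with the GC content of its transcript, a feature that the choice of the genes did not use. The 5 members with a GC content of 56.0% to 57.6% (Apoc3, Dgat2, Dgat1, Apoa1 and Apoa4) were the ones with lower estimates under both agonists. The 3 members of lowest GC content, Cd36 at 38.4%, Fabp2 at 42.4% and Apob at 43.5%, had higher estimates under both, and Fabp1 at 45.8% and Mttp at 45.9% were closest to 0 with norepinephrine. The median over 15229 genes was 49.6%. Since the libraries differed in their slope on GC content, as given above, the trend was removed from each library and the block was kept. The members called were then 0 of 10 for norepinephrine, where 0.203% of all genes passed, and 3 of 10 for UK14,304, where 4.11% did. Those 3 were Apoc3 (-0.41, SE 0.0833, adjusted p = 0.0204), Dgat2 (-0.13, adjusted p = 0.0218) and Apob (0.20, adjusted p = 0.033). The estimates of Dgat1 came to 0.0017 for norepinephrine and 0.0032 for UK14,304, and that of Fabp2 for UK14,304 to 0.0035. With the GC trend removed and norepinephrine replicate 4 left out as well, Apoc3 (-0.32, adjusted p = 0.0396) and Cd36 (0.18, adjusted p = 0.0276) passed for norepinephrine, 2 of 10 where 3.21% of all genes did. The estimates of Apoc3 stayed below 0 and those of Apob and Cd36 above 0 in each of these fits, and the part of GC content in the remaining differences was not tested.

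**Figure D4:**
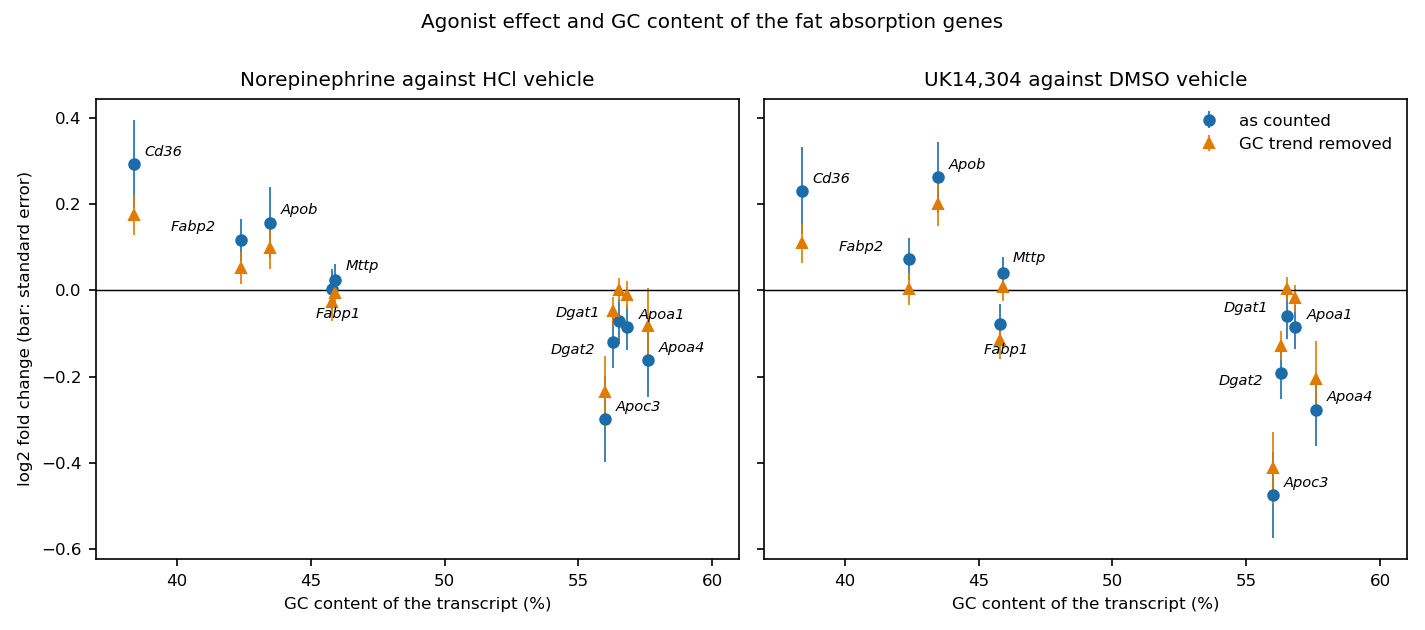
Log2 fold change of each gene with its standard error (y axis) against the GC content of its transcript in percent (x axis) for norepinephrine (left) and UK14,304 (right). Circles show the counts as deposited and triangles the same fit after the GC trend was removed from each library. The genes at 56.0% to 57.6% lie below 0 as counted, those under 44% above 0, and the triangles are mostly closer to 0, with Apoc3 at -0.41 for UK14,304.

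The ribosomal RNA share went with the UK14,304 comparison and with some members. Apoc3 averaged 138.5 CPM in the 7 libraries of higher share and 117.5 CPM in the 11 others, Apoa4 averaged 1913 and 1698 CPM, and Apob 3567 and 3886 CPM. With this split as a term beside the block, 0 of 10 members passed for UK14,304, where 0.512% of all genes did, and 0 of 10 for norepinephrine, where 0.105% did. With the GC trend removed as well, Apoc3 with UK14,304 was at -0.35 (adjusted p = 0.0792). Within the 11 libraries of lower share, which hold 1 with DMSO vehicle, the fit with the block left 3 residual degrees of freedom. The lone DMSO library was assumed to vary like the other groups. It is replicate 4, and the only other library of that number in this set is UK14,304 replicate 4, whose GC slope was -0.222. With the block the UK14,304 estimates therefore rest on this pair alone, and only their size is given. For norepinephrine the fit called 6 of 10 members, where 16.8% of all genes passed. Apoc3 was then at -0.44 (adjusted p = 0.000823) with norepinephrine and -0.50 with UK14,304. Apob was at 0.23 (adjusted p = 1.17e-07) with norepinephrine and 0.57 with UK14,304. The same libraries without the block gave 0 of 10 for both agonists, where 0% of all genes passed, with Apoc3 at -0.45 and -0.56. The 7 libraries of higher share, with 1 HCl vehicle and 1 UK14,304 library, leave 0 residual degrees of freedom with the block. Without it the replicate numbers of the groups are not matched, and Apoc3 was at -0.12 with norepinephrine and -0.13 with UK14,304 on the log2 scale. For UK14,304 this sets replicate 1 against DMSO replicates 1 to 3, while against DMSO replicate 1 alone Apoc3 was at -0.236.

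The effects of the agonists were not distinguishable from each other for any member. The difference between the UK14,304 effect and the norepinephrine effect ranged from -0.18 for Apoc3 (95% interval -0.47 to 0.12) to 0.11 for Apob (95% interval -0.14 to 0.35) on the log2 scale, and every adjusted p was 1. By edgeR 0 of 10 members passed and 0 of 10 had an unadjusted p under 0.05, while over all genes 0 passed (0%) and 405 had an unadjusted p under 0.05. The call of Apoc3 with 1 agonist and not the other is thus not a shown difference. The vehicles did not separate the members either. HCl against DMSO gave log2 differences between -0.054 for Fabp2 and 0.12 for Apoc3, with 0 of 10 members passing or with an unadjusted p under 0.05, where 0% of genes passed and 277 had an unadjusted p under 0.05.

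Most members shared a pattern over the replicate numbers. Replicate 3 was the lowest library of each of the 4 groups for Apoa1, Apoa4, Apoc3, Mttp, Fabp1 and Dgat2. Over the 18 libraries, which share replicate numbers and treatments and so are not independent, the Pearson correlation of log2 CPM was 0.947 between Apoa4 and Apoc3, 0.879 between Apoa1 and Apoc3 and 0.87 between Apoa1 and Apoa4. Dgat2, on another chromosome, was as close to this cluster, with 0.947 to Apoc3 and 0.937 to Apoa4. Fabp2 and Cd36 formed a second pair at 0.914, and their correlations with Apoc3 were -0.503 and -0.542. Without the 4 libraries of replicate 3, the correlation was still 0.949 between Apoa4 and Apoc3, 0.89 between Apoc3 and Dgat2 and 0.91 between Fabp2 and Cd36 over 14 libraries. That between Apoa1 and Apoa4 was 0.661, and that between Mttp and Apoc3 went from 0.58 to -0.459, so it rested on replicate 3. Mttp also went from 0.649 to -0.445 with Apoa1, from 0.782 to -0.277 with Apoa4, from 0.713 to -0.362 with Fabp1 and from 0.425 to -0.655 with Dgat1. Fabp1 went from 0.752 to 0.202 with Apoa4. Apob became more opposed to the high GC members, from -0.321 to -0.845 with Apoc3, -0.219 to -0.849 with Dgat2 and -0.435 to -0.814 with Dgat1. It went from 0.509 to 0.818 with Mttp and from 0.38 to 0.447 with Cd36. Members of high GC content correlated with each other and the pair Fabp2 and Cd36 is of low GC content, and the part of GC content in these correlations was not tested.

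**Figure D5:**
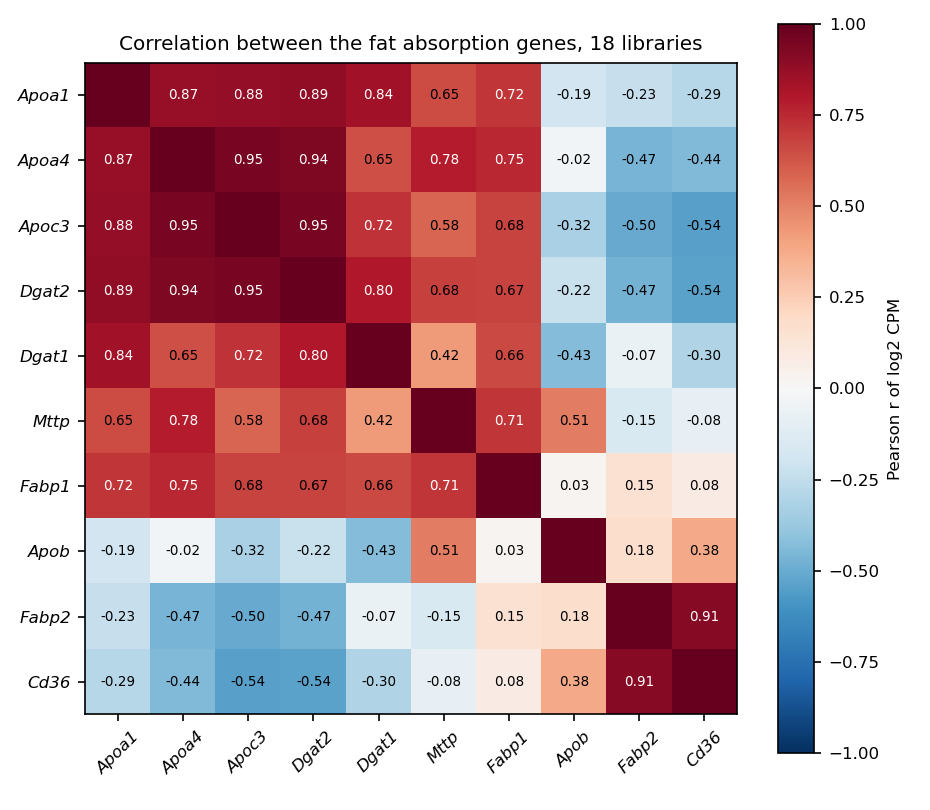
Pearson correlation of log2 CPM over the 18 libraries for each pair of the 10 genes, from -1 (blue) to 1 (red), with the value written in each cell. Apoa1, Apoa4, Apoc3 and Dgat2 form a block of values from 0.87 to 0.947, Fabp2 and Cd36 a pair at 0.914, and Apob has its highest value, 0.509, with Mttp.

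The mean pattern of the members, taken as the average of their standardized log2 CPM, includes each of them and the low libraries of replicate 3. Its correlation was 0.915 with Fabp1, 0.861 with Apoa1, 0.857 with Mttp and 0.84 with Apoa4, and 0.152 with Apob, 0.058 with Fabp2 and 0.031 with Cd36. Of the genes tested that are no members, those most like this pattern over the 18 libraries were Rbp2 (0.941), a cellular retinol binding protein of enterocytes, Acsl5 (0.923), which activates fatty acids, and Gpd1 (0.921), a glycerol 3-phosphate dehydrogenase. Bmf (0.917), Pbld2 (0.914), Creb3l3 (0.913), a transcription factor of liver and gut that acts on apolipoprotein genes, Gm21885 (0.912), H2-Q2 (0.909), Ces1e (0.907) and Crat (0.903), carnitine acetyltransferase, came next. These values rank the genes and have no test.

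The wider pathway was read from lists of genes. Of 10 genes of fatty acid uptake and activation, 9 tested genes of triglyceride resynthesis, 16 of chylomicron assembly and export and 16 transcription factors of fat absorption genes, 0 passed in either comparison. In chylomicron assembly and export, 13 of 16 estimates were lower with norepinephrine and 14 of 16 with UK14,304, with medians of -0.055 and -0.070, where 52.7% and 51.3% of all genes had lower estimates. In the same order of agonists, 8 of 9 and 6 of 9 were lower in triglyceride resynthesis and 12 of 16 and 10 of 16 among the transcription factors. In uptake and activation 4 of 10 and 7 of 10 were lower. Mgll, a monoglyceride lipase of the chylomicron list, had the largest change there, -0.42 with norepinephrine (adjusted p = 0.556) and -0.54 with UK14,304 (adjusted p = 0.0759). Its level was low, with group means from 1.97 CPM with UK14,304 to 2.74 CPM with DMSO vehicle. Mogat2, the monoacylglycerol acyltransferase of the gut, was at -0.023 and -0.074 (adjusted p = 0.89 and 0.539). Of 7 genes of sterol absorption, 1 passed with UK14,304, Scarb1, a receptor for high density lipoprotein, which fell by 0.38 on the log2 scale (SE 0.0865, adjusted p = 0.0365, and 0.697 without the block), and 0 passed with norepinephrine. Scarb1 kept its call in 11 of 23 cases with a library or replicate number left out (adjusted p from 0.00133 to 0.216), and lost it with the ribosomal RNA term (-0.32, adjusted p = 0.213), also with the GC trend removed (adjusted p = 0.117). Of 7 other apolipoprotein genes only 4 passed the filter on low counts, with 0 called, and the summed level of all 7 was 5.36 to 7.03 CPM. Among the transcription factors, Hnf4a was at -0.039 and -0.029 and Creb3l3 at -0.050 and -0.067 on the log2 scale for norepinephrine and UK14,304.

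Without norepinephrine replicate 4, more of these genes passed, as more of all genes did (16.7% and 8.08%). For norepinephrine they were 2 of 10 in uptake and activation (Slc27a2 and Acsl4, both higher), 4 of 9 in triglyceride resynthesis (Gpat3 higher, and Agpat2, Lpin1 and Lpin3 lower), 6 of 16 in chylomicron assembly and export (Mia2 higher, and Pla2g12b, Tm6sf2, Plin2, Plin3 and Pnpla2 lower), 2 of 7 in sterol absorption (Npc1l1 and Stard3, lower) and, among the transcription factors, Hnf4g (higher) and Ppard, Rxra and Klf4 (lower). For UK14,304 they were Slc27a2 (higher) and Lpin1, P4hb, Tm6sf2, Plin2, Plin3, Mgll, Scarb1 and Ppard (all lower). Ppard, a nuclear receptor for fatty acids, was at -0.29 (adjusted p = 0.00106) with norepinephrine and -0.19 (adjusted p = 0.0092) with UK14,304, and Tm6sf2, an endoplasmic reticulum protein of lipoprotein lipidation, at -0.22 (adjusted p = 0.00318) and -0.15 (adjusted p = 0.0234).

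Markers of other cells of the epithelium were set beside the members. Of the enterocyte markers of the methods, Alpi, the intestinal alkaline phosphatase, was at -0.054 with norepinephrine and -0.19 with UK14,304 (adjusted p = 0.807 and 0.263), and the other 3 are the members Apoa1, Apoa4 and Fabp1. Another list of 8 enterocyte genes again held Alpi. In these 8, 5 villus tip genes, 5 genes of intestinal regions, 6 stem cell markers, 5 enteroendocrine markers and 2 tested tuft cell markers, 0 passed in either comparison with all libraries. Without norepinephrine replicate 4, 16.7% and 8.08% of all genes passed. Of the 6 stem cell markers, 1 then passed with each agonist, Slc12a2, as higher (0.24, adjusted p = 0.0096, and 0.20, adjusted p = 0.0204). With all libraries, 4 stem cell estimates were higher and 2 lower with norepinephrine, and 3 were higher and 3 lower with UK14,304. Sis, sucrase-isomaltase, also passed as higher with both agonists without norepinephrine replicate 4 (0.26, adjusted p = 0.00707, and 0.18, adjusted p = 0.0398). These further calls were made without that library. With norepinephrine Onecut2 was also higher and Vil1 and Klf4 lower, and with UK14,304 Lct was higher and Slc5a1 lower. The epithelial markers Krt8 and Krt18 were lower with norepinephrine, and Cidec with both agonists (-0.31, adjusted p = 0.0212, and -0.34, adjusted p = 0.0111). All 5 Paneth cell markers had lower estimates with both agonists. Lyz1, lysozyme, fell by 0.37 on the log2 scale with norepinephrine (adjusted p = 0.0019) and by 0.31 with UK14,304 (adjusted p = 0.0031), and Defa22, a defensin, fell by 0.69 (adjusted p = 0.0062) and 0.70 (adjusted p = 0.00208). With all libraries Ang4 passed with UK14,304 and not with norepinephrine, at -0.27 (adjusted p = 0.022), as did the goblet cell marker Agr2 at -0.16 (adjusted p = 0.0324), and neither difference between the agonists was called. Both of these calls were lost with the ribosomal RNA term (adjusted p = 0.0707 and 0.115). Without norepinephrine replicate 4, all 5 Paneth cell markers passed as lower with both agonists. So did 2 of the 3 tested goblet cell markers, Tff3 and Agr2, with Tff3 at -0.31 (adjusted p = 0.000273) and -0.24 (adjusted p = 0.000592). The other goblet cell marker, Muc2, did not pass. With all libraries, 1 of these 3 had a higher estimate and 2 a lower one with each agonist. With a library or replicate number left out, Ang4 kept its call in 16 of 23 cases and Agr2 in 9 of 23, and with norepinephrine Lyz1 kept its call in 21 and Defa22 in 20. None of these calls was made without the block. The summed level of the Paneth cell markers was 2330 to 3570 CPM with HCl vehicle, 1910 to 2670 with norepinephrine, 2230 to 3440 with DMSO vehicle and 1940 to 2890 with UK14,304. The part of the Paneth cell markers in the values of the fat absorption genes was not tested.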

How the data were processed

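RNA was isolated by the authors from 18 organoid samples, and libraries of its mRNA were sequenced as 50 bp single reads, mapped with STAR 2.7.3 to GRCm38 and counted per gene with featureCounts. Per the file headers, featureCounts was release 2.0.1 with Ensembl 102, whereas the submitters' notes name Subread 1.6.4. The deposited values are raw counts for 55487 genes, of which 55141 had a symbol, and 0 columns of samples were left unused. Total counts were 21.87 to 27.85 M per sample.

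The analysis used edgeR 4.0.16 in R 4.3.3 (TMM, filterByExpr by group, robust quasi-likelihood fit), with the 4 groups and the replicate number as a block in 1 model of 18 samples. Benjamini-Hochberg adjusted p-values cover the 15247 genes tested, and an adjusted p under 0.05 is called. CPM values are TMM-normalized, RPKM values divide them by exon length, and log2 CPM used a prior count of 2. The block follows from the sample titles. Deviations from the group means correlated by 0.119 to 0.431 in the 4 pairs of equal number of norepinephrine and HCl vehicle, and by 0.155 to 0.52 in the 4 pairs of UK14,304 and DMSO vehicle. Over all 25 pairs of equal number in the 4 groups, 23 were over 0.1, and the lowest, -0.212, was that of norepinephrine and UK14,304 replicate 4. No libraries were duplicates. The authors used DESeq2, so DESeq2 1.42.0 was an alternative.

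The members and the gene lists were chosen with earlier results of these data known. Named are the members, list genes that were called, list genes given as examples, the 10 genes most like the mean pattern and genes that overlap a member. A gene of the lists is not reported here. GC content came from GENCODE M21 transcripts, promoters from RefSeq (GRCm38.p6) and near matches from blastn 2.17.0 (at least 50 bases at 95% identity). The tests were checked on simulated data. Further alternatives were DESeq2 size factors, other filters on low counts, the agonist with its own vehicle alone, removal of the GC trend (lowess, span 0.3), a term for over 1% ribosomal RNA counts, and leaving out each replicate number or sample. The GC trend removed together with that term, or with norepinephrine replicate 4 left out, and fits within the libraries of lower or higher ribosomal RNA share were added after seeing the data.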

Additional observations from a re-analysis of the deposited data

Results flagged for a closer look

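In 7 of the 40 sets of 1 gene in 1 group, a single library lay far from the others. The measure was the gap to its nearest neighbour as a share of the whole range of the group. The limit is 1 that about 1 set in 20 passes by chance if values are normal and independent. These libraries share replicate numbers and the genes correlate, and the share of such sets over all genes is not given. An excess in the members is thus not shown. In 5 of these 7 the library was replicate 3, the lowest. Mttp had a gap of 0.893 of the range in HCl vehicle, 0.855 in DMSO vehicle and 0.871 in UK14,304, Dgat2 had 0.937 in HCl vehicle, and Apoa4 had 0.799 in UK14,304. The shared replicate number means that these 5 are not separate observations. Fabp2 in UK14,304 had its lowest library, replicate 2, at a gap of 0.771. Dgat1 in norepinephrine had its highest library, replicate 4, at a gap of 0.714, and this is the norepinephrine library whose GC slope stood apart. The cause of these gaps was not tested.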

How the results depend on the processing

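The counts of members called were the values most open to the processing. For UK14,304 the 1 call became 0 without the block, by DESeq2 without the block, with the ribosomal RNA term and with that term and the GC trend removed. It became 2 by DESeq2 with the block (1.73% of genes), 3 with only the agonist and its vehicle (3.55%), 3 with the GC trend removed (4.11%) and 5 with no filter on low counts (1.88%). For norepinephrine the 0 calls became 4 with no filter (0.458%) and 2 with the GC trend removed and norepinephrine replicate 4 left out (3.21%). Within the libraries of lower ribosomal RNA share, the block gave 6 calls for norepinephrine (16.8% of genes), and without the block there were 0. The UK14,304 estimates with the block rested there on 1 pair of libraries. Leaving out replicates or samples gave 0 to 6 calls for norepinephrine, where 4 to 2529 of all genes were called. For UK14,304 it gave 0 to 4 calls, where 23 to 1225 of all genes were called. Without the replicate block 0 members were called in any comparison.

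Among the single genes, estimates near 0 changed sign. With the GC trend removed, with replicate 4 left out as well, or with the ribosomal RNA term as well, norepinephrine gave -0.0051, -0.012 and -0.0057 for Mttp, -0.026, -0.055 and -0.027 for Fabp1, and 0.0017, 0.0065 and 0.0019 for Dgat1, and UK14,304 gave 0.0032, 0.0037 and 0.0014 for Dgat1 and, in the last of these fits, -0.0046 for Fabp2. Within the libraries of lower ribosomal RNA share, Fabp1 gave -0.0072 for norepinephrine and 0.058 for UK14,304 with the block, and without it Fabp1 gave -0.019 for norepinephrine and Mttp -0.018 for UK14,304. Within those of higher share, fitted without the block, norepinephrine gave 0.065 for Apoa1 and 0.029 for Apoa4, and UK14,304 gave 0.11 for Apoa1, 0.11 for Fabp1 and 0.12 for Dgat1. The replicate numbers of the groups are not matched there, and UK14,304 replicate 1 is set against DMSO replicates 1 to 3. Against DMSO replicate 1 alone it was at -0.039 for Apoa1, -0.046 for Fabp1 and 0.019 for Dgat1. For the difference between the agonist effects, Apoa1 gave -0.012 with no filter, -0.0079 with the GC trend removed and -0.0019 with the term as well, and Dgat1 gave -0.0008, -0.0028 (replicate 4 left out) and -0.0006. Between the vehicles, Fabp1 gave -0.0042 and Dgat1 -0.0037 with no filter, and with the ribosomal RNA term Apob gave -0.021 and Fabp1 -0.0072. Leaving out replicates or samples moved the norepinephrine estimate between -0.0076 and 0.059 for Mttp and between -0.024 and 0.065 for Fabp1. It moved the difference between the agonists from -0.028 to 0.064 for Apoa1, -0.042 to 0.16 for Apob, -0.0075 to 0.046 for Mttp, -0.031 to 0.076 for Dgat1, -0.12 to 0.0034 for Dgat2 and -0.21 to 0.030 for Cd36. It moved the difference between the vehicles from -0.016 to 0.057 for Apob, -0.045 to 0.045 for Fabp1, -0.018 to 0.027 for Dgat1, -0.011 to 0.071 for Dgat2 and -0.076 to 0.027 for Cd36. The causes were not tested.

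Apoc3 kept its lower direction with UK14,304 in all settings run. The 4 or 5 libraries a group limit the precision, with standard errors of 0.037 to 0.103 on the log2 scale for the members in the agonist comparisons.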
